A study of Cricetulus griseus with 4 samples.

Results

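Cited1, Sulf2, Arnt2, Unc5b, Ackr3 and Recql4 are 6 of the 20754 genes counted in CHO-K1 cells, an established Chinese hamster ovary cell line. They were chosen by their CPM values with a selective activator of the vitamin D receptor (VDR) against the DMSO control, where each differed more than 2-fold, so that difference is given only as a description. The question asked of each is whether it also went with VDR activation when the ligand was 25-hydroxyvitamin D3, as Cyp24a1 does.

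The 4 treatments, in the same line and with 1 poly(A) RNA library each, were 25-hydroxyvitamin D3, a selective inhibitor of SREBP (sterol regulatory element-binding protein), the selective VDR activator, and DMSO. Cells of every group, DMSO included, were kept for 24 hr in medium with 5% lipid-depleted serum, 50 µM of the statin compactin and 50 µM lithium mevalonate, so all values describe sterol-depleted cells. The labels give neither dose nor structure for any compound, so sizes of response are not compared at a matched dose. Libraries held between 21335639 and 23653321 counts. In the 25-hydroxyvitamin D3 library 0.753% of counts came from mitochondrial-encoded genes, against 5.25% to 6.81% in the other libraries, and its part in the differences below was not tested. Of the mesenchymal markers checked, Vim, Fn1, Sparc and Col3a1 were expressed and Col1a1 lay below 1 CPM in each library, while 9 markers of other lineages reached at most 2.01 CPM. The 4 expressed mesenchymal markers were all below DMSO with the VDR activator, by a median of -0.64 in log2(CPM + 1) and with 0 past 2-fold, and with 25-hydroxyvitamin D3 by a median of -1.10, with 2 past it. Their part in the lower values below was not tested. CPM is the count of a gene per 1000000 of the scaled library size.

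The VDR is a nuclear receptor that, once bound by a vitamin D metabolite, pairs with a retinoid X receptor and acts on the transcription of target genes. Cyp24a1, which encodes the enzyme that starts the breakdown of active vitamin D, is the classical target gene and serves as its readout. 25-hydroxyvitamin D3, the main circulating form of the vitamin, also lowers SREBP activity, which drives cholesterol and fatty acid synthesis. The 6 genes have separate roles: transcriptional co-regulation (Cited1), transcription factor pairing (Arnt2), trimming of extracellular heparan sulfate (Sulf2), netrin guidance (Unc5b), chemokine scavenging (Ackr3) and DNA replication (Recql4).

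Cyp24a1 stood at 185 CPM with 25-hydroxyvitamin D3, 5.99 CPM with the SREBP inhibitor, 258 CPM with the VDR activator and 3.27 CPM in DMSO. The 2 libraries with a VDR ligand were thus far above the other 2. Among the 6 genes, only Cited1 was high with the VDR activator and low with 25-hydroxyvitamin D3. By their own counts Sulf2 and Recql4 were highest with the VDR activator and next highest with 25-hydroxyvitamin D3, and Arnt2, Unc5b and Ackr3 were lowest with 25-hydroxyvitamin D3 and next lowest with the VDR activator.

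**Figure D1:**
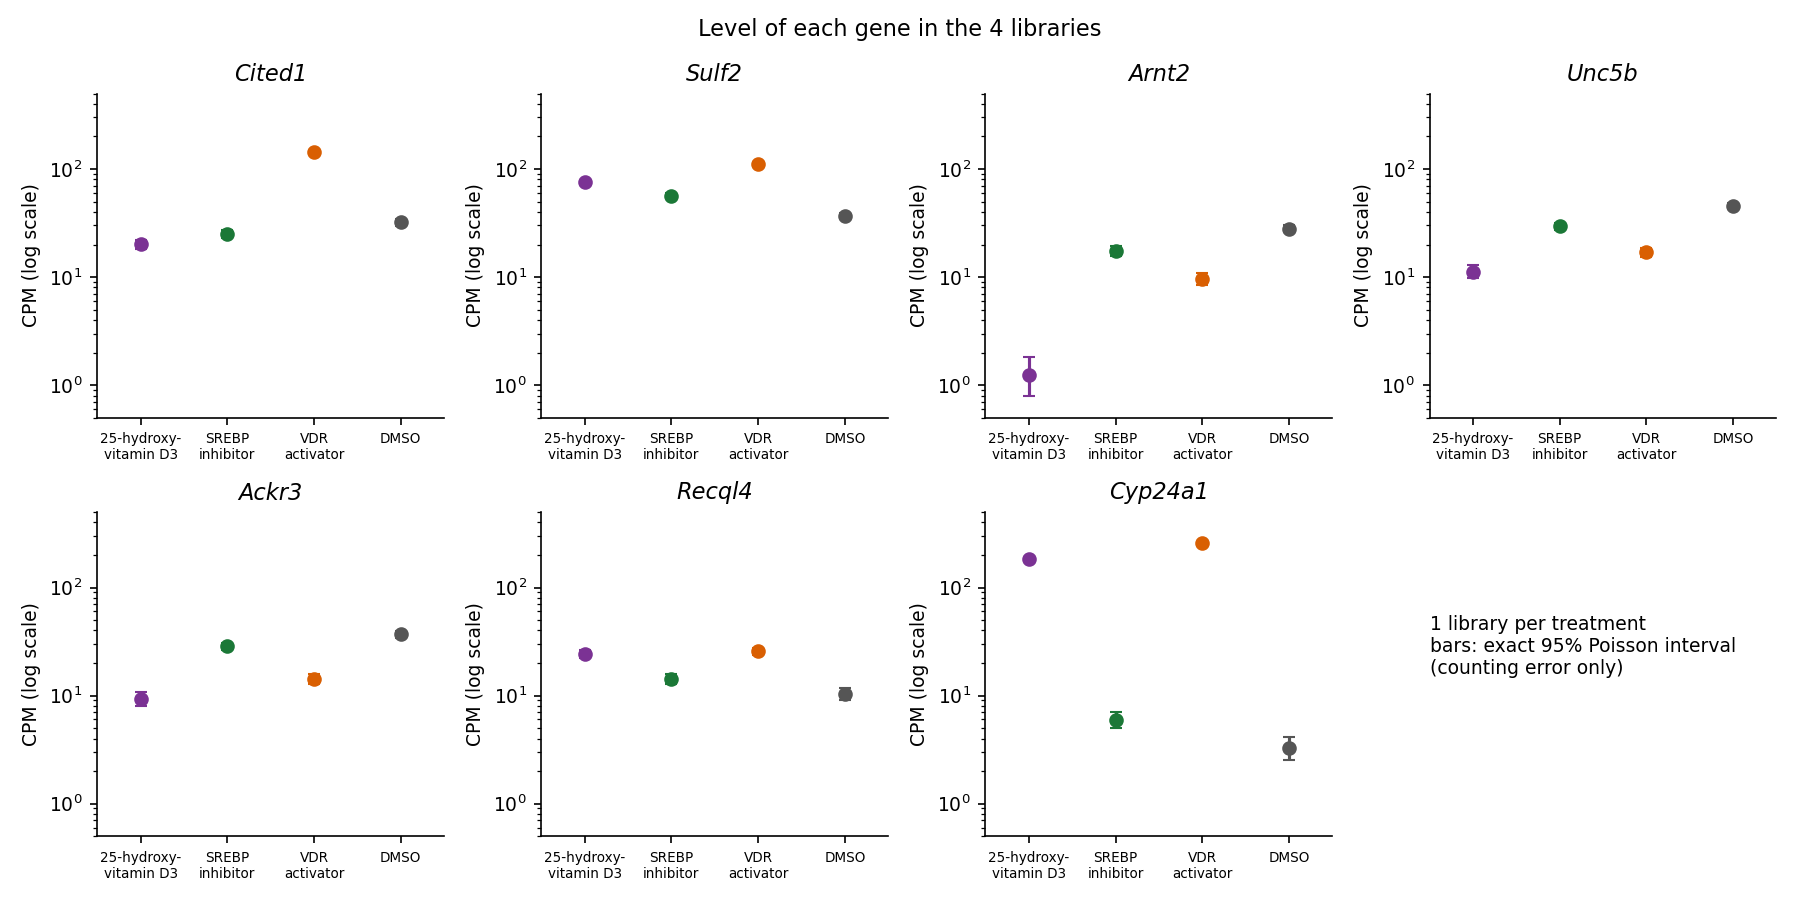
Level of each gene in CPM (log axis) in the 4 libraries, 1 point per library, with the exact 95% Poisson interval of its count as a bar (counting error only). Cited1 is at 144 CPM with the VDR activator and between 20.1 and 32.3 CPM elsewhere, while Arnt2, Unc5b and Ackr3 are lowest with 25-hydroxyvitamin D3.

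A gene was called when its log2(CPM + 1) differed by 1 or more, a 2-fold limit, with at least 1 CPM and 10 counts in either library. With 1 library per group there is no replicate check and no test across conditions. Printed 95% intervals of a fold are exact Clopper-Pearson intervals of the counts and cover counting error only. With the VDR activator against DMSO, all 6 genes passed by choice, 3 higher and 3 lower, where 0.507% of 11431 genes did, 0.184% higher and 0.324% lower. With 25-hydroxyvitamin D3 against DMSO, 2 were higher and 3 lower, where 23.8% of 11482 genes passed, 11.6% higher and 12.2% lower. None of the 6 passed with the SREBP inhibitor against DMSO, where 3.35% of 11449 genes did, 1.95% higher and 1.4% lower. With 25-hydroxyvitamin D3 against the SREBP inhibitor, 3 were lower and 0 higher, where 9.2% of 11314 genes passed, 6.05% lower and 3.15% higher. The 5 of 6 called for 25-hydroxyvitamin D3 against DMSO stand beside a wide background. The first 3 of these comparisons share the DMSO library, and their values are therefore given side by side only.

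**Figure D2:**
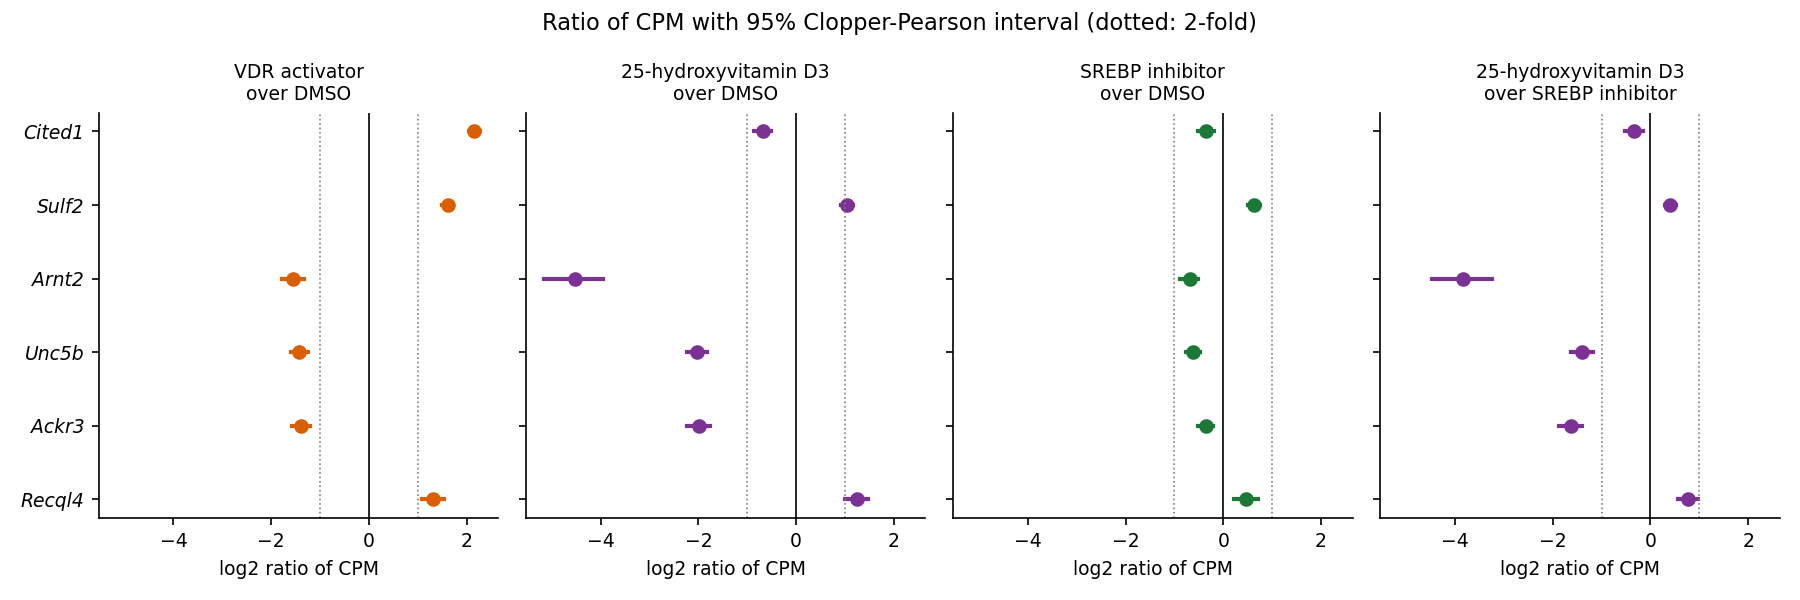
Log2 ratio of CPM of each gene in the 4 comparisons, with the 95% Clopper-Pearson interval of the counts as a line and 2-fold dotted. Cited1 lies right of 0 with the VDR activator and left of 0 in the other comparisons, and Arnt2 lies farthest left with 25-hydroxyvitamin D3.

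Cited1 encodes a co-regulator that binds the histone acetyltransferases CBP and p300 and does not itself bind DNA. It had 20.1 CPM with 25-hydroxyvitamin D3, 25.2 CPM with the SREBP inhibitor, 144 CPM with the VDR activator and 32.3 CPM in DMSO, from 409, 585, 3515 and 701 counts. The VDR activator library alone was high, and the other treated libraries lay below DMSO. Cited1 was 4.45-fold higher with the VDR activator than in DMSO (4.11 to 4.84), and ranked second from the highest in log2(CPM + 1) difference among all genes tested there, after Cyp24a1. With 25-hydroxyvitamin D3 it was 1.61-fold lower than in DMSO (1.42 to 1.82), and with the SREBP inhibitor 1.28-fold lower (1.15 to 1.43). Set directly against each other, 25-hydroxyvitamin D3 had 0.140 times the Cited1 level of the VDR activator (0.126 to 0.155). For Cyp24a1 the same ratio was 0.716 (0.687 to 0.745). In the comparison of 25-hydroxyvitamin D3 with the SREBP inhibitor, which uses neither library behind the choice of genes, Cited1 was 1.26-fold lower (1.11 to 1.43) and Cyp24a1 30.9-fold higher (26.1 to 36.8). In these single libraries Cited1 did not follow Cyp24a1.

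Its family member Cited2 is a co-regulator of the same kind. Cited2 had 18.6 CPM with 25-hydroxyvitamin D3, 50.4 CPM with the SREBP inhibitor, 36.2 CPM with the VDR activator and 75.9 CPM in DMSO. It was thus below DMSO in every treated library and lowest with 25-hydroxyvitamin D3, opposite to Cited1 with the VDR activator and on the same side of DMSO as Cited1 with the other compounds. A list of 18 CITED partners and TGF-beta pathway genes had 13 measured with the VDR activator against DMSO, of which 0 were 2-fold higher and 2 lower (median -0.16), against 0.184% higher, 0.324% lower and a median of 0.01 over all genes tested. The 2 were Cited2 and Ctgf, a matrix-associated growth factor gene and SMAD target, with 0.638 CPM with 25-hydroxyvitamin D3, 32.2 CPM with the SREBP inhibitor, 20.2 CPM with the VDR activator and 91.7 CPM in DMSO. Against the SREBP inhibitor, 25-hydroxyvitamin D3 had 2 of 14 higher and 3 lower (median 0.10), against 3.15% higher, 6.05% lower and a median of 0.02 over all genes, and among the higher was Smad7, an inhibitor of TGF-beta signalling, at 62 counts against 9. The co-activator genes Ep300 and Crebbp, singled out as known CITED partners, stayed between 143 and 185 CPM and between 21.2 and 31.6 CPM.

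Arnt2 encodes a bHLH-PAS transcription factor that serves as the dimer partner of other PAS proteins and is best known from neurons. It had 1.23 CPM with 25-hydroxyvitamin D3, 17.4 CPM with the SREBP inhibitor, 9.53 CPM with the VDR activator and 28.1 CPM in DMSO. The 25-hydroxyvitamin D3 value rests on 25 counts, against 610 counts in DMSO. Arnt2 was 2.95-fold lower with the VDR activator (2.53 to 3.44), 1.61-fold lower with the SREBP inhibitor (1.42 to 1.84) and 22.9-fold lower with 25-hydroxyvitamin D3 (15.4 to 35.7), each against DMSO. It ranked 28th lowest of the 11482 genes tested with 25-hydroxyvitamin D3 against DMSO. Against the SREBP inhibitor, 25-hydroxyvitamin D3 was 14.2-fold lower (9.47 to 22.2), the 17th lowest of 11314 genes. Of the 6 genes, Arnt2 had the widest range between libraries.

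Arnt, the close relative of Arnt2, did not share this pattern. It had 185 CPM with 25-hydroxyvitamin D3, 124 CPM with the SREBP inhibitor, 152 CPM with the VDR activator and 165 CPM in DMSO. Of 21 listed bHLH-PAS factors, coactivators and aryl hydrocarbon receptor (AHR) targets, 13 were measured with the VDR activator against DMSO, and 0 passed 2-fold (median -0.05). Over all genes tested 0.507% passed, with a median of 0.01, so 0 of 13 is near that share. For 25-hydroxyvitamin D3 against the SREBP inhibitor, 14 were measured, with 3 higher and 1 lower (median 0.21), against 3.15% higher and 6.05% lower of all genes. The lower one was Arntl2, a clock-related family member, at 0.343 CPM with 25-hydroxyvitamin D3 against 2.24 CPM with the SREBP inhibitor. Npas2 had the largest higher value, at 38 counts against 2. Ahr itself had 99.7 CPM with 25-hydroxyvitamin D3, 45.5 CPM with the SREBP inhibitor, 18.3 CPM with the VDR activator and 17.6 CPM in DMSO, and is one of the 3 higher, named after its values were seen. Ahr was thus higher with 25-hydroxyvitamin D3 and with the SREBP inhibitor than with the VDR activator or in DMSO. Tiparp, the remaining one of the 3 higher and also named after its values were seen, did not share that order. It had 497 CPM with 25-hydroxyvitamin D3, 207 CPM with the SREBP inhibitor, 178 CPM with the VDR activator and 180 CPM in DMSO.

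Sulf2 encodes a secreted sulfatase that removes 6-O-sulfate groups from heparan sulfate chains and so alters the binding of growth factors at the cell surface. It had 75.4 CPM with 25-hydroxyvitamin D3, 56.7 CPM with the SREBP inhibitor, 112 CPM with the VDR activator and 36.7 CPM in DMSO. Every treated library was above DMSO, and the VDR activator library was highest. Sulf2 was 2.06-fold higher with 25-hydroxyvitamin D3 than in DMSO (1.89 to 2.24), 1.55-fold higher under the SREBP inhibitor (1.42 to 1.69) and 3.05-fold higher under the VDR activator (2.82 to 3.30). The value with 25-hydroxyvitamin D3 lay close to the 2-fold limit, with a difference of 1.02 on the log2(CPM + 1) scale, and dropped to 0.93 when libraries were scaled to the same total count. Against the SREBP inhibitor, 25-hydroxyvitamin D3 was 1.33-fold higher (1.23 to 1.43), the 2638th highest of 11314 genes. Against the VDR activator it was lower, at 0.675 times (0.633 to 0.719). By its own counts Sulf2 had the same order of the 4 libraries as Cyp24a1, with a range of 3.05-fold from highest to lowest against 79.0-fold. That order did not hold for its counts summed with those of Ncoa3, a gene with which it shares reads, which were lowest with 25-hydroxyvitamin D3.

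The related sulfatase gene Sulf1 had 6 counts or fewer in each library, so Sulf2 was the sulfatase gene of this pair that these cells expressed at a measurable level. Of 36 listed heparan sulfate core proteins and enzymes, 21 were measured, and with the VDR activator against DMSO none passed 2-fold (median -0.09). Over all genes tested 0.507% passed there, with a median of 0.01. Between 25-hydroxyvitamin D3 and the SREBP inhibitor, 0 were higher and 3 lower (median -0.34), where 6.05% of all genes were lower and 3.15% higher, with a median of 0.02. The largest of these were the core proteins perlecan (Hspg2), with 306 CPM with 25-hydroxyvitamin D3 against 1055 CPM with the SREBP inhibitor, and glypican-6 (Gpc6), with 35.0 against 114 CPM. The sulfotransferase gene Hs6st1, which adds the groups that Sulf2 removes and was singled out for that role, had 33.6 CPM with 25-hydroxyvitamin D3, 45.3 CPM with the SREBP inhibitor, 49.0 CPM with the VDR activator and 49.5 CPM in DMSO.

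Sulf2 and Recql4 carried fractional counts in every library, which marks reads divided between rows, and Ackr3 did so with the SREBP inhibitor and in DMSO. Ncoa3, a coactivator gene, overlaps Sulf2 in RefSeq's CriGri-PICRH-1.0 annotation, and Mfsd3 overlaps Recql4, with Lrrc14 next to it. Whether counting used strand is not known. Sulf2 and Ncoa3 added up to 3812, 4911.5, 6786.5 and 4535.5 counts with 25-hydroxyvitamin D3, the SREBP inhibitor, the VDR activator and in DMSO. Together they had 187 CPM with 25-hydroxyvitamin D3, 212 CPM with the SREBP inhibitor, 278 CPM with the VDR activator and 209 CPM in DMSO. With the VDR activator the sum was 68.8 CPM above DMSO, close to the 75.1 CPM by which Sulf2 alone differed. With 25-hydroxyvitamin D3 the sum was 0.895 times that of DMSO, where Ncoa3 had 112 CPM against 172 CPM in DMSO. The sum of Recql4, Mfsd3 and Lrrc14 was 40.1 CPM with 25-hydroxyvitamin D3, 42.1 CPM with the SREBP inhibitor, 55.1 CPM with the VDR activator and 42.0 CPM in DMSO. Both sums were above DMSO with the VDR activator and below it with 25-hydroxyvitamin D3. With 25-hydroxyvitamin D3 against the SREBP inhibitor they were also lower, at 0.884 times for Sulf2 with Ncoa3 and 0.953 times for Recql4 with Mfsd3 and Lrrc14, so the higher values of Sulf2 and Recql4 with 25-hydroxyvitamin D3 are uncertain. The number of reads divided is not known, so the sums cannot tell a lower neighbour gene from a different division of reads.

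**Figure D3:**
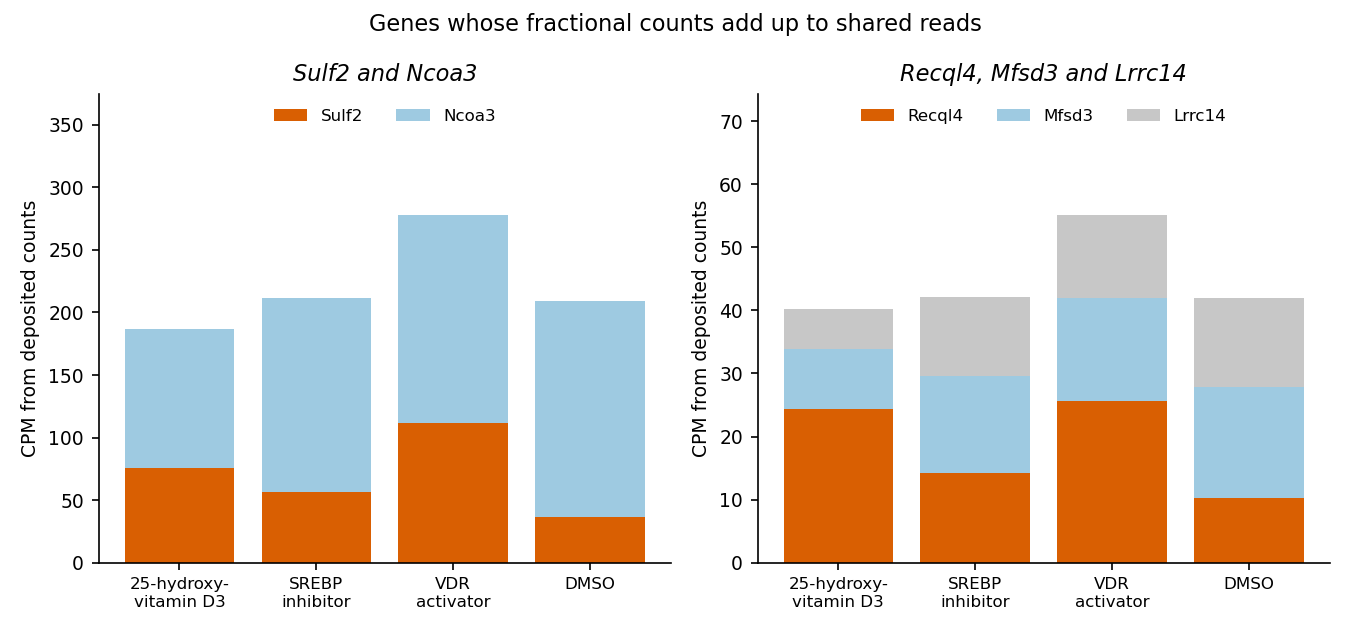
CPM of genes that share reads, stacked, in the 4 libraries (left, Sulf2 and Ncoa3; right, Recql4, Mfsd3 and Lrrc14). The summed height is greatest with the VDR activator, at 278 and 55.1 CPM, while with 25-hydroxyvitamin D3 it is 187 and 40.1 CPM, against 209 and 42.0 CPM in DMSO.

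Unc5b and Ackr3 are cell surface receptors that went together through the 4 libraries. Unc5b, a receptor for the guidance protein netrin-1, had 11.2 CPM with 25-hydroxyvitamin D3, 29.6 CPM with the SREBP inhibitor, 17.0 CPM with the VDR activator and 45.6 CPM in DMSO. Ackr3, an atypical receptor that takes up the chemokine CXCL12 and couples to arrestins, had 9.27 CPM with 25-hydroxyvitamin D3, 28.7 CPM with the SREBP inhibitor, 14.1 CPM with the VDR activator and 36.9 CPM in DMSO. In both genes DMSO was highest and each treated library was below it, with the same order.

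With the VDR activator against DMSO, Unc5b was 2.68-fold lower (2.39 to 3.01) and Ackr3 2.61-fold lower (2.30 to 2.97). With 25-hydroxyvitamin D3 against DMSO, Unc5b was 4.06-fold lower (3.52 to 4.71) and Ackr3 3.97-fold lower (3.39 to 4.68). The SREBP inhibitor was closer to DMSO, with Unc5b 1.54-fold lower (1.40 to 1.70) and Ackr3 1.28-fold lower (1.16 to 1.43). Against the SREBP inhibitor, 25-hydroxyvitamin D3 was 2.63-fold lower for Unc5b (2.26 to 3.07) and 3.09-fold lower for Ackr3 (2.63 to 3.66). Of 11314 genes in that comparison, Unc5b ranked 320th and Ackr3 213th from the lowest. Both differences are near in size to those of the VDR activator against DMSO, from libraries that the 2 comparisons do not share.

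Partners of both receptors were expressed in part. Among 18 listed netrin and UNC5 guidance genes, 7 were measured with the VDR activator against DMSO. None passed 2-fold and 1 lay above 0 (median -0.33), where 0.507% of all genes passed and 52.1% lay above 0 (median 0.01). With 25-hydroxyvitamin D3 against the SREBP inhibitor 6 were measured. Again none passed, and 0 lay above 0 (median -0.63), where 9.2% of all genes passed and 51.8% lay above 0 (median 0.02). With so few genes, none past the limit is near those shares. Ntn1, the gene of netrin-1, had 5 or 6 counts in each library. Another netrin gene, Ntn4, named after its values were seen, was expressed. It had 64.5 CPM with 25-hydroxyvitamin D3, 109 CPM with the SREBP inhibitor, 80.1 CPM with the VDR activator and 113 CPM in DMSO. The netrin receptor gene Neo1, singled out as the most abundant member, had 276 CPM with 25-hydroxyvitamin D3, 315 CPM with the SREBP inhibitor, 240 CPM with the VDR activator and 321 CPM in DMSO. Of 19 listed ligands, receptors and adaptors around Ackr3, 9 were measured, with none past 2-fold for the VDR activator against DMSO (median 0.01). That is near the 0.507% of all genes that passed there, also with a median of 0.01. In the comparison of 25-hydroxyvitamin D3 with the SREBP inhibitor 2 were lower and 0 higher (median -0.56), against 6.05% lower and 3.15% higher and a median of 0.02 over all genes. Cxcl12, the chemokine that Ackr3 takes up, had 0 counts with 25-hydroxyvitamin D3, which allows up to 0.147 CPM at 3 counts, against 1.64 CPM with the SREBP inhibitor, 3.52 CPM with the VDR activator and 4.15 CPM in DMSO. The arrestin gene Arrb1 had 15.4 CPM with 25-hydroxyvitamin D3 and 36.1 CPM with the SREBP inhibitor. Cxcr4, the signalling receptor for the same chemokine, had 0 counts in all 4 libraries.

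Recql4 encodes a RecQ helicase that takes part in the start of DNA replication. It had 24.3 CPM with 25-hydroxyvitamin D3, 14.3 CPM with the SREBP inhibitor, 25.6 CPM with the VDR activator and 10.3 CPM in DMSO. The 2 libraries with a VDR ligand were close in level, with a ratio of 25-hydroxyvitamin D3 to the VDR activator of 0.95 (0.842 to 1.07). Recql4 was 2.35-fold higher with 25-hydroxyvitamin D3 than in DMSO (2.01 to 2.77), 1.38-fold higher under the SREBP inhibitor (1.16 to 1.65) and 2.48-fold higher under the VDR activator (2.12 to 2.90). Against the SREBP inhibitor, 25-hydroxyvitamin D3 was 1.70-fold higher (1.48 to 1.96), under the 2-fold limit and the 988th highest of 11314 genes. Its neighbours with shared reads were lower with 25-hydroxyvitamin D3, Mfsd3 at 9.62 against 17.6 CPM in DMSO and Lrrc14 at 6.18 against 14.1 CPM.

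Replication genes as a group stood on the same side as Recql4. All 30 listed RecQ helicase and replication initiation genes were measured. With the VDR activator against DMSO 3 were 2-fold higher, 0 lower and 27 above 0, with a median of 0.60. Over all genes tested 0.184% were 2-fold higher and 52.1% above 0, with a median of 0.01. The list also lay mostly above DMSO without a VDR ligand. With the SREBP inhibitor against DMSO, 1 was 2-fold higher, 0 lower and 25 above 0, with a median of 0.23. Of all genes tested there 1.95% were 2-fold higher and 51.4% above 0, with a median of 0.01. Against the SREBP inhibitor, 25-hydroxyvitamin D3 had 2 higher, 0 lower and 26 above 0 (median 0.56), against 3.15% higher, 51.8% above 0 and a median of 0.02 over all genes. Cdt1, which loads the replicative helicase, had 22.0 CPM with 25-hydroxyvitamin D3, 10.7 CPM with the SREBP inhibitor, 15.0 CPM with the VDR activator and 5.85 CPM in DMSO. Blm, another RecQ helicase gene, had 96.1 CPM with 25-hydroxyvitamin D3, 40.6 CPM with the SREBP inhibitor, 53.5 CPM with the VDR activator and 30.4 CPM in DMSO. The remaining RecQ genes Wrn, Recql and Recql5, singled out as the rest of the family, ranged from 60.3 to 69.7, 41.7 to 55.8 and 20.4 to 24.7 CPM. Wrn and Recql5 were highest in DMSO and lowest with 25-hydroxyvitamin D3, unlike Recql4. Recql was highest with the VDR activator and next highest with 25-hydroxyvitamin D3, as Recql4 was. The part of cell division in the Recql4 difference was not tested.

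**Figure D4:**
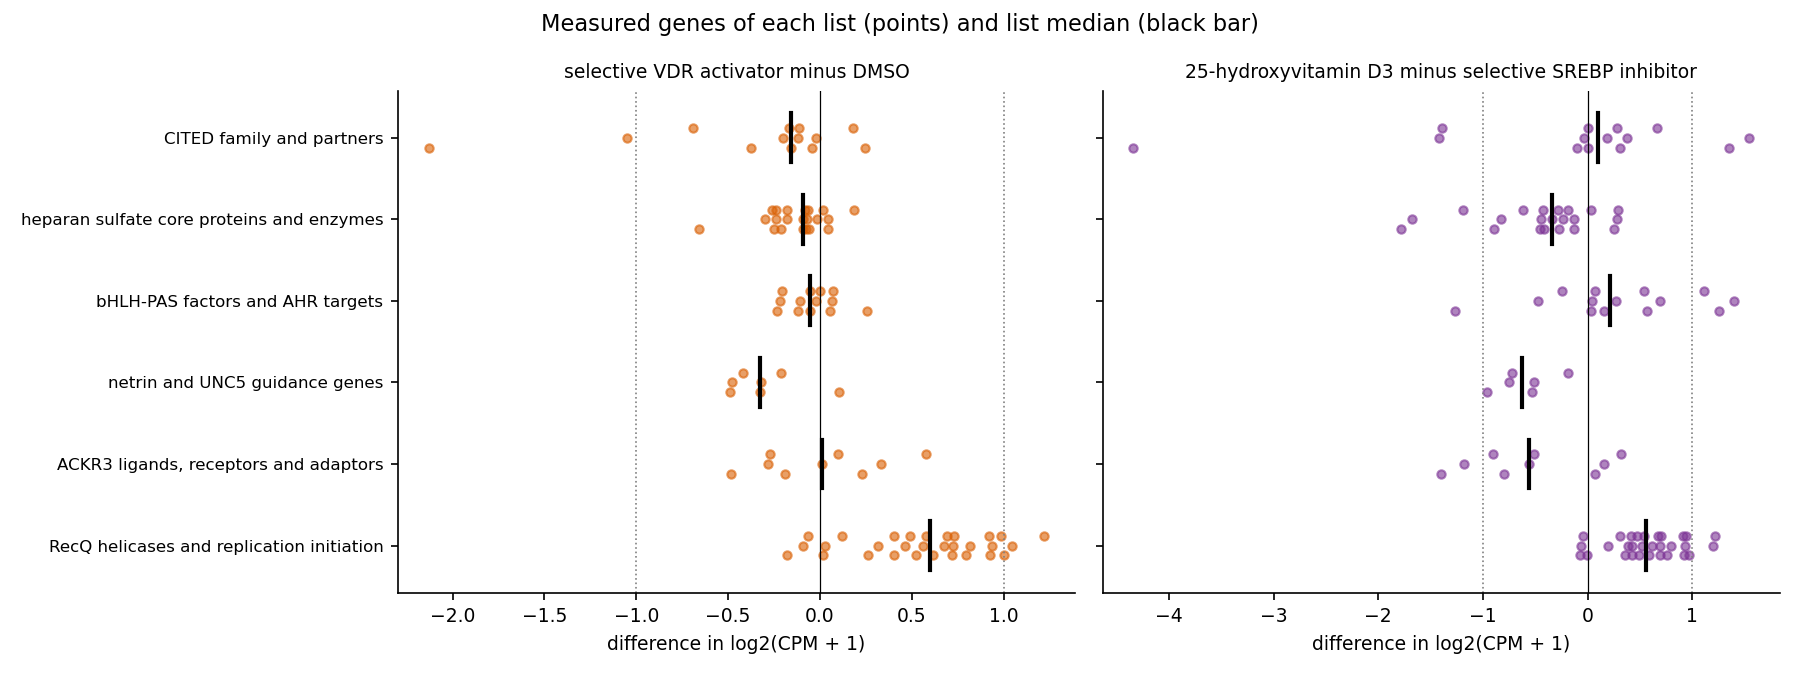
Differences in log2(CPM + 1) of the measured genes of 6 pathway lists, cell type markers not shown (points, spread vertically only to separate them) and their median (black bar), for the VDR activator minus DMSO (left) and 25-hydroxyvitamin D3 minus the SREBP inhibitor (right). The horizontal scales of the panels differ. The replication list has medians of 0.60 and 0.56, and the medians of the other 5 lists shown lie between -0.63 and 0.21.

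The comparison of 25-hydroxyvitamin D3 with the SREBP inhibitor and that of the VDR activator with DMSO share no library. By their own counts, 5 of the 6 genes had the same direction in both, Cited1 being the exception. For Sulf2 and Recql4 this was not so of the sums with the genes that share their reads, at 0.884 and 0.953 times the SREBP inhibitor. Only Arnt2 and Unc5b, with whole counts in every library, had the same direction without the fractional counts that mark divided reads. Unc5b is overlapped by LOC100768550, which had 0 counts in every library. How reads in that overlap were assigned is not known. Ackr3 had the same direction too, but carried fractional counts with the SREBP inhibitor and in DMSO, and no sum was formed for it. Over the 11198 genes measured in both, 65.4% lay on the same side of 0. Arnt2, Unc5b and Ackr3, the 3 lower genes, were called in both, while 10.2% of all genes below 0 with the VDR activator were 2-fold lower in the other comparison. Of genes called 2-fold lower with the VDR activator, as these 3 were by choice, 82.9% were 2-fold lower again. The 3 genes are thus not set apart from other genes called that way. Sulf2 and Recql4, by their own counts, were higher without passing 2-fold, where 4.46% of all genes above 0 with the VDR activator were 2-fold higher. Of genes called 2-fold higher with the VDR activator, 38.1% were.

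**Figure D5:**
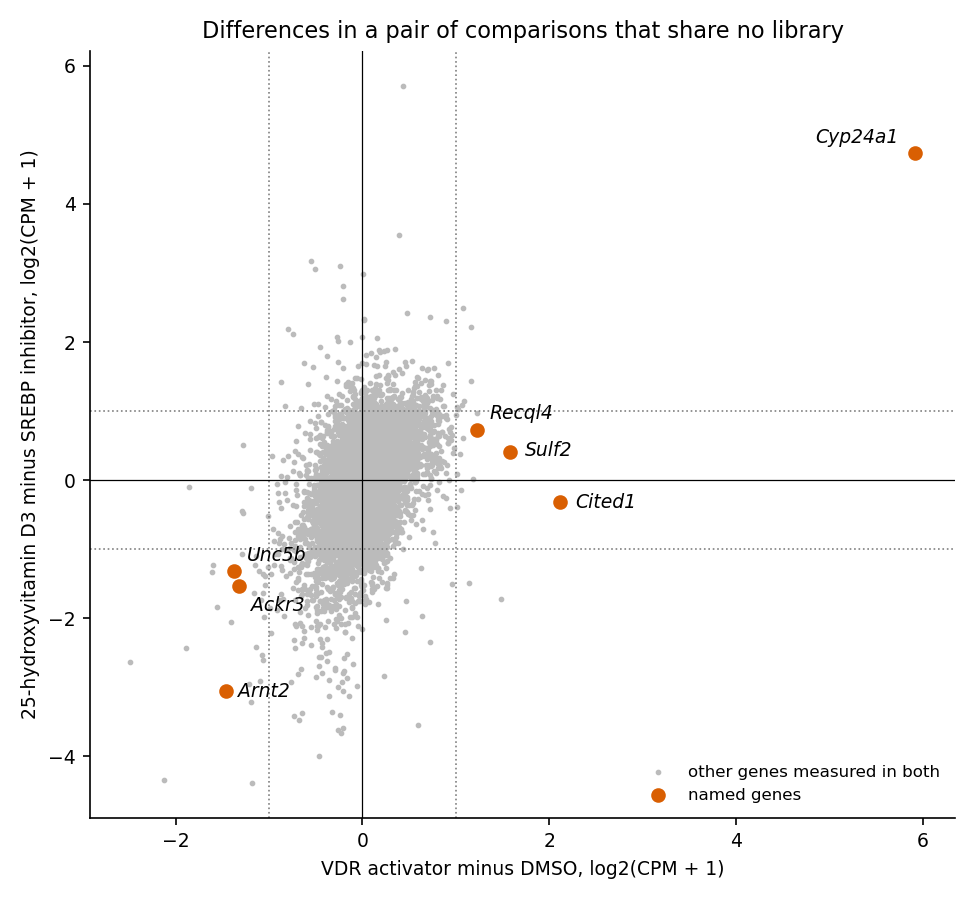
Difference in log2(CPM + 1) for the VDR activator minus DMSO (horizontal) and for 25-hydroxyvitamin D3 minus the SREBP inhibitor (vertical), for 11198 genes (grey), the 6 genes and Cyp24a1 (orange), with 2-fold dotted. Cyp24a1 lies at 5.92 and 4.73, Cited1 at 2.12 and -0.31, and Arnt2 at -1.47 and -3.05.

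Per length, the genes can be ranked by the authors' FPKM values, which scale counts by gene length and a library total. With 25-hydroxyvitamin D3, Cited1 was the most abundant at 18.0 FPKM, followed by Sulf2 at 10.2 FPKM, and Arnt2 was lowest at 0.232 FPKM. Values with the SREBP inhibitor ran from 24.4 FPKM for Cited1, followed by 11.8 for Ackr3, to 3.45 for Recql4. With the VDR activator Cited1 led at 140.0 FPKM, followed by Sulf2 at 16.5 FPKM, and Arnt2 was lowest at 1.97 FPKM. In DMSO, Cited1 was at 30.6 FPKM, followed by Ackr3 at 14.9, Unc5b at 7.57, Arnt2 at 5.64, Sulf2 at 5.28 and Recql4 at 2.44 FPKM. Cited1 thus led in every library. The rank of Sulf2 with 25-hydroxyvitamin D3 rests on divided reads, whose sum with Ncoa3 was 0.895 times that of DMSO.

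Likeness of pattern was measured as the Euclidean distance between the 3 differences from DMSO in log2(CPM + 1), among 8705 named genes that reached 10 CPM in some library. Unc5b and Ackr3 were nearest to each other, at a distance of 0.27. Cited2 and Nav1 followed for Unc5b at 0.33 and 0.36, and the matrix protein gene Postn and Cited2 for Ackr3 at 0.29 and 0.37. Sulf2 was nearest to Recql4 at 0.42, then to the replication genes Mcm10 and Gins1. Recql4 itself was nearest to Mcm5 at 0.29, to the clamp loader gene Rfc3 at 0.30 and to Gins1 at 0.31. Arnt2 had more distant neighbours, the melanosome transport gene Mlph at 0.71, the galectin gene Lgals1 at 0.80 and the intermediate filament gene Synm at 0.91. Cited1 had none close by. Its nearest gene was Kiaa0101, which encodes a PCNA-associated factor, at 1.27, with 24.8 CPM with 25-hydroxyvitamin D3, 29.2 CPM with the SREBP inhibitor, 66.6 CPM with the VDR activator and 36.3 CPM in DMSO. Phf19 at 1.33 and Asap3 at 1.43 followed. These distances share the DMSO library and are a description.

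Genes next to the 6 on the chromosome, taken by their order in the RefSeq table, mostly differed less than 2-fold. Beside Cited1, Hdac8 and Rps4x differed between the VDR activator and DMSO by -0.06 and 0.16 on the log2(CPM + 1) scale, against 2.12 for Cited1. Beside Sulf2, Zmynd8 differed by -0.06 in that comparison. Beside Arnt2, Fah differed by 0.16 and Abhd17c by -0.83. With 25-hydroxyvitamin D3 against the SREBP inhibitor, Fah was 2-fold lower (-1.12), and Depdc1 beside Unc5b was 2-fold higher (1.19), opposite to Unc5b. Cops8, beside Ackr3, differed by 0.06 with the VDR activator and 0.20 in the comparison with the SREBP inhibitor.

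The choice of the 6 genes has a limit in size. Of named genes that reached 5 CPM, Mcm5 (difference 1.00) and Cd36 (-1.02) lay just inside the 2-fold limit for the VDR activator against DMSO, and Gins1 (0.98) and Dusp6 (-0.99) just outside. The 6 genes lay further out, from 1.23 for Recql4 and -1.32 for Ackr3. They do not hold all of the largest differences. Aqp1 (-2.49), Ctgf (-2.13) and Lama3 (-1.89) lay further out than any lower member, and Cyp24a1 (5.92) than any higher member.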

How the data were processed

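Per the labels, libraries of CHO-K1 RNA, 1 per treatment, were made with the TruSeq Standard mRNA kit. The deposited table holds estimated counts for each gene, many of them fractional, and the authors' FPKM values, per the file headers. Of software, bcl2fastq 1 and TopHat2 2 are listed in the submitters' processing notes. The counting tool, build and strand handling are not given in the sources. RefSeq coordinates were used only to find which genes overlap or lie next to each other.

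Rows of 1 gene name were summed, which left 20754 genes, and estimated counts were rounded to whole numbers. Cyp24a1 and 10 list genes were found under LOC identifiers by their description. Library sizes were scaled by edgeR 4.0.16 (TMM, R 4.3.3), and intervals were computed with SciPy 1.17.1. One CPM corresponded to 20.4 counts with 25-hydroxyvitamin D3, 23.2 with the SREBP inhibitor, 24.4 with the VDR activator and 21.7 in DMSO. Reads without molecular identifiers are not independent molecules, so intervals can be too narrow. The call rule was tested on simulated Poisson counts. These hold no variation between libraries, so that test cannot show how the rule behaves under such variation.

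The members and lists were chosen with earlier results of these data known. Named genes were the 6 and Cyp24a1, the 2 with the largest difference per list among called genes, the 3 nearest in pattern per gene, and up to 10 genes called in both comparisons that share no library. Alternatives were other scalings (DESeq2 1.42.0 size factors among them), pseudocounts and filters on low values. Genes on the neighbouring positions and the sums of shared reads were added after seeing the data.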

Additional observations from a re-analysis of the deposited data

Results flagged for a closer look

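Cited1 was above DMSO with the VDR activator, by 2.16 on the log2 scale of the CPM ratio, but below DMSO with 25-hydroxyvitamin D3, at -0.69, and with the SREBP inhibitor, at -0.36. Each counting interval excluded equality. The single library of one compound went one way and the single library of another the opposite way, and the difference between the compounds was not tested, since each has 1 library.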

How the results depend on the processing

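With 1 library per treatment nothing can be left out, and the limits are those of single libraries. No paired analysis was possible because each group has 1 library. No value of the 6 genes or Cyp24a1 changed sign under any of the 8 alternatives, in any of the 4 comparisons. The 3 lower calls of Arnt2, Unc5b and Ackr3 held under all 8, both for 25-hydroxyvitamin D3 against DMSO and against the SREBP inhibitor. Higher members with 25-hydroxyvitamin D3 against DMSO numbered 2, but 1 with FPKM library totals and 1 with the same total count per library, where Sulf2 was at 0.94 and 0.93, and 0 with a pseudocount of 5, where Sulf2 was at 0.95 and Recql4 at 0.94. With that pseudocount Recql4 was at 0.997 with the VDR activator against DMSO. Counts over all genes moved with the pseudocount. With the VDR activator against DMSO, 45 genes were higher and 86 lower with 0.1, and 5 and 14 with 5. With the SREBP inhibitor against DMSO, 307 were lower with 0.1, and 143 were higher and 93 lower with 5. With 25-hydroxyvitamin D3 against DMSO, 830 were lower with 5. For 25-hydroxyvitamin D3 against the SREBP inhibitor, 237 were higher and 314 lower with 5, and 233 higher with FPKM library totals. Genes called in both comparisons that share no library numbered 16 higher with 0.1, and 3 higher and 10 lower with 5. The cause was not tested.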

Other observations

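Counting the 6 genes and Cyp24a1, the VDR activator against DMSO had 21 genes 2-fold higher and 37 lower. The 37 hold Arnt2, Unc5b and Ackr3, which are all among those called again below. The 21 hold Cited1, Sulf2, Recql4 and Cyp24a1, of which only Cyp24a1 was called again. Of the 37 lower, 35 were measured with 25-hydroxyvitamin D3 against the SREBP inhibitor, a comparison on other libraries, and 29 were 2-fold lower there too, or 82.9%, where 6.05% of all genes tested were. Of the 21 higher, 8 were 2-fold higher again, or 38.1%, where 3.15% of all genes were, and 2 were 2-fold lower. Among genes lower in both were Aqp1, a water channel gene, with 0.343 CPM with 25-hydroxyvitamin D3, 7.32 CPM with the SREBP inhibitor, 10.9 CPM with the VDR activator and 65.9 CPM in DMSO, and the laminin gene Lama3, with 0.638, 7.84, 6.55 and 27.0 CPM in the same libraries. Both were also below DMSO with the SREBP inhibitor.

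Higher in both were Junb, an AP-1 transcription factor gene, with 160 CPM with 25-hydroxyvitamin D3, 33.4 CPM with the SREBP inhibitor, 46.2 CPM with the VDR activator and 20.1 CPM in DMSO, and Slc14a1, a urea transporter gene, with 76.3, 27.6, 49.4 and 21.6 CPM. Lrrc15, a membrane protein gene, was lower in both at low levels, with 0.0981, 2.41, 1.76 and 5.16 CPM. Plekhg4, named after its values were seen, was 2-fold higher with the VDR activator and 2-fold lower in the other comparison, with 1.18 CPM with 25-hydroxyvitamin D3, 5.13 CPM with the SREBP inhibitor, 15.3 CPM with the VDR activator and 6.36 CPM in DMSO.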
